A study of Bubalus bubalis with 36 samples.

Results

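miR-221 and miR-222 are small regulatory RNAs (miRNAs) that are made from the same primary transcript, and they were followed here across 6 fat depots of the water buffalo (Bubalus bubalis). Their members in the count table were chosen by name, as the rows bta-miR-221 and bta-miR-222, 2 of the 1682 features counted. No other row of the table carried the name of either miRNA or of one of their arms. Both rows passed the filter on low counts, which kept 667 features, 389 of them with bovine miRNA names. The study took fat from 6 buffaloes, with the same 6 depots of every animal, and sequenced its miRNA to set subcutaneous against visceral fat. The subcutaneous depots were back fat (BSAT), fat over the sternum (SSAT) and inguinal fat (IAT), and the visceral ones were fat of the omentum (OAT), of the pericardium (PCAT) and around the kidney (PRAT). Each depot had 6 libraries, 1 per animal, so that each class had 18 of the 36 libraries. The labels name no treatment, and all animals shared 1 schedule, with weaning at 3, the start of fattening at 15 and slaughter at 20 months of age.

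An miRNA guides a silencing complex to messenger RNAs that pair with its seed, the short stretch near its 5′ end, and lowers their translation or stability. miR-221 and miR-222 share their seed and are known, chiefly from human and mouse cells, for repressing CDKN1B (p27), a brake on the cell cycle, KIT, the receptor of stem cell factor, and TIMP3, an inhibitor of metalloproteases. They are abundant in cultured endothelial and smooth muscle cells, and in human and mouse fat they have been linked to adipocyte differentiation, obesity and inflammatory signalling.

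Library totals ran from 9484589 to 13920998 counted reads. Levels are given in CPM, reads scaled to a common library total after an adjustment by TMM, a normalization that balances composition between libraries. Rows of miRNAs known to be abundant in fat (miR-143, miR-103, miR-107, miR-378, miR-193a, miR-193b and miR-365) were all tested, 10 of 10, and summed to 8812 to 92076 CPM per library. These are whole-tissue samples, in which fewer cells of a type and less RNA per cell cannot be told apart.

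Both named rows held few reads. The table also counts candidate loci without a miRNA name. The miR-221 row held 0.946% of the reads summed over itself and the locus NC_059181.1_46472, and the miR-222 row 0.109% of those summed over itself and NC_059181.1_46474. The first locus correlated with miR-221 by r = 0.95 over the 36 libraries. The second correlated with miR-222 by only 0.44 and was picked by its identifier after its values were seen. Whether these loci hold further reads of miR-221 or miR-222 was not tested, so every level, difference and ratio of the pair given here is that of the named rows alone. miR-221 averaged 10.5 CPM over the 36 libraries and ranked 285 of 667 tested features by mean level. miR-222 averaged 3.44 CPM and ranked 381. Their counts ran from 7 to 1098 reads for miR-221 and from 4 to 223 reads for miR-222, so that the lowest values were imprecise. The 4 reads of miR-222 in PCAT1 (pericardial fat of animal 1) gave 0.328 CPM with an exact Poisson 95% interval of 0.0894 to 0.84 CPM. The 1098 reads of miR-221 in OAT2 (omental fat of animal 2) gave 68.8 CPM with an interval of 64.8 to 73.0 CPM. These intervals cover counting error only, because amplified reads are not independent molecules.

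In the subcutaneous depots, miR-221 ran from 3.21 through a median of 7.24 to 26.8 CPM in back fat, from 2.47 through 5.86 to 22.2 CPM in sternum fat, and from 3.14 through 5.89 to 16.0 CPM in inguinal fat. In the visceral depots it ran from 0.603 through a median of 6.05 to 68.8 CPM in omental fat, from 0.902 through 10.2 to 17.2 CPM in pericardial fat, and from 1.27 through 2.69 to 27.3 CPM in perirenal fat. Every depot overlapped every other, and both the lowest and the highest library of all 36 were omental. The highest library belonged to a different animal in different depots: animal 3 in back fat, animal 2 in sternum, omental and pericardial fat, and animal 6 in inguinal and perirenal fat. The order of the depots depended on the summary. By the mean, omental fat was first (19.7 ± 27.4 CPM, SD, n = 6), followed by back (9.74 ± 8.66), pericardial (9.45 ± 5.79), inguinal (8.14 ± 5.59), perirenal (8.05 ± 10.2) and sternum fat (7.99 ± 7.14). By the median, pericardial fat was first and perirenal fat last. No neighbours in either order were separated beyond their spread.

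miR-222 ran in the subcutaneous depots from 1.20 through a median of 3.09 to 5.13 CPM in back fat, from 1.52 through 2.80 to 6.30 CPM in sternum fat, and from 1.19 through 1.99 to 6.50 CPM in inguinal fat. In the visceral depots it ran from 1.16 through a median of 3.50 to 14.0 CPM in omental fat, from 0.328 through 2.09 to 5.87 CPM in pericardial fat, and from 0.454 through 2.03 to 10.3 CPM in perirenal fat. Again every depot overlapped every other, and the 3 highest libraries were OAT2, OAT6 and PRAT3. By the mean, omental fat was first (5.80 ± 5.44 CPM, SD, n = 6), followed by perirenal (3.42 ± 3.70), sternum (3.23 ± 1.84), back (3.09 ± 1.65), inguinal (2.60 ± 1.95) and pericardial fat (2.47 ± 2.00).

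**Figure D1:**
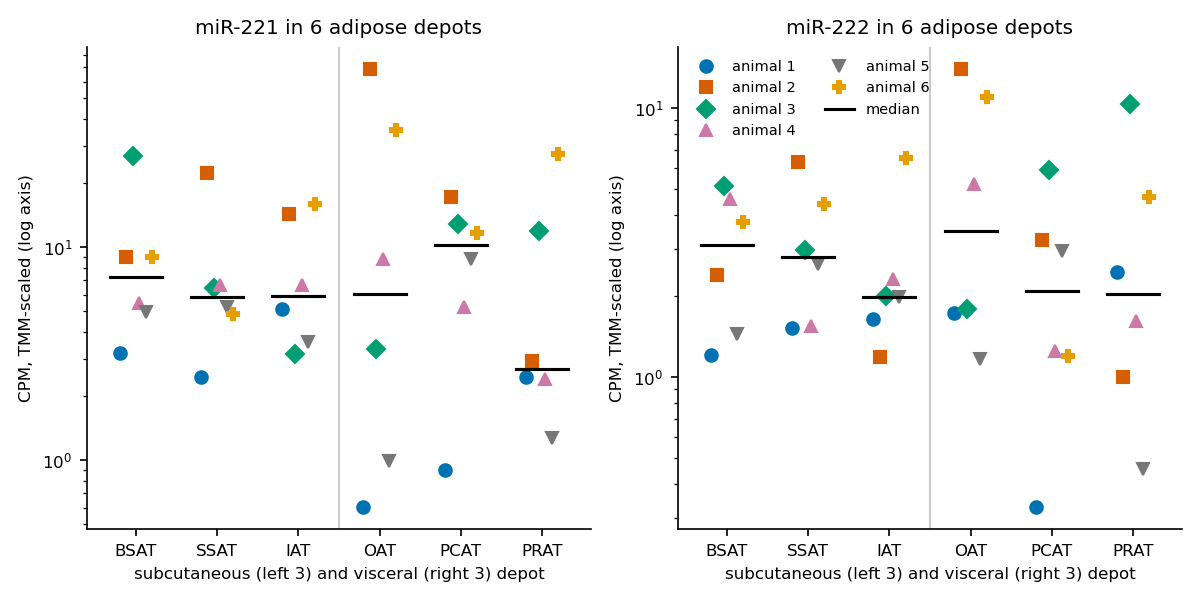
Level of miR-221 (left) and miR-222 (right) in CPM on a log axis, 1 symbol per library and 1 shape and colour per animal, with the depot median as a bar and the subcutaneous depots left of the grey line. The depots overlap for both miRNAs, with the widest spread of miR-221 in omental fat, between 0.603 and 68.8 CPM.

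Neither miRNA passed the test between subcutaneous and visceral fat. miR-221 had a range of 2.47 to 26.8 CPM with a median of 5.97 CPM in the 18 subcutaneous libraries, against 0.603 to 68.8 CPM with a median of 7.01 CPM in the 18 visceral libraries. miR-222 had a range of 1.19 to 6.50 CPM with a median of 2.35 CPM in subcutaneous fat, against 0.328 to 14.0 CPM with a median of 2.12 CPM in visceral fat. For both, the subcutaneous range lay wholly inside the visceral range. The log2 difference of subcutaneous minus visceral fat was −0.41 ± 0.49 (SE) for miR-221, with a 95% interval of −1.40 to 0.58, and −0.31 ± 0.39 for miR-222, with an interval of −1.09 to 0.47. By edgeR's quasi-likelihood test, with Benjamini-Hochberg adjustment, the adjusted p was 0.594 for miR-221 and 0.620 for miR-222, so 0 of the 2 passed the threshold of 0.05, which 16.5% of the 667 tested features passed. The unadjusted p-values were 0.403 and 0.430, and neither miRNA passed with DESeq2 or limma. The intervals of this fit, which has no animal term, include 2-fold lower levels in subcutaneous fat for both miRNAs. By this fit alone, a difference of that size is therefore not excluded. With the animal as a replicate block the difference was −0.0076 ± 0.44 (SE) for miR-221 and −0.19 ± 0.34 for miR-222, and neither passed.

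The sign of the class difference varied with the animal. The mean log2 level of subcutaneous minus visceral fat for miR-221 was 1.49 in animal 1, −0.10 in animal 2, 0.03 in animal 3, 0.36 in animal 4, 0.94 in animal 5 and −1.32 in animal 6. miR-222 gave 0.26, −0.44, −0.60, 0.19, 0.64 and 0.24 in animals 1 to 6. Thus 4 of 6 animals were higher in subcutaneous fat for each miRNA, whereas both fitted differences were below 0. The fitted difference compares mean levels rather than mean logarithms, and OAT2 and OAT6 held the highest levels of both miRNAs. Without OAT2 and OAT6, left out after the values were seen, the class difference was 0.45 for miR-221 and 0.08 for miR-222, opposite in sign and not called. Within the libraries that carry the letter B in their names, a letter whose meaning the labels do not give, the class difference was −0.41 for miR-221 and −0.35 for miR-222, also not called. Of the 8 libraries with the letter A, 1 was subcutaneous and 7 were visceral.

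No single depot passed for either miRNA. Over all 6 depots the F test gave adjusted p-values of 0.693 for miR-221 and 0.626 for miR-222, where 13.9% of tested features passed. Among the 3 subcutaneous depots the adjusted p-values were 0.977 and 0.971 (0.6% of features passed), and among the 3 visceral depots 0.613 and 0.592 (1.95% passed). The shares that passed in the 15 pairs of depots were 0.3% (BSAT minus SSAT), 0% (BSAT minus IAT), 1.65%, 6.45% and 1.05% (BSAT minus OAT, PCAT and PRAT), 0.6% (SSAT minus IAT), 4.8%, 12.1% and 7.2% (SSAT minus OAT, PCAT and PRAT), 0.75%, 3.45% and 0.6% (IAT minus OAT, PCAT and PRAT), 0.9% (OAT minus PCAT), 0.45% (OAT minus PRAT) and 2.1% (PCAT minus PRAT). None of these pairs passed for either miRNA, and none had an unadjusted p under 0.05. With p-values adjusted over the 15 pairs of 1 miRNA, the smallest was 0.720 for miR-221 and 0.711 for miR-222.

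Omental fat had the widest departure. The fitted log2 difference of omental fat minus the mean of the other 5 depots was 1.19 ± 0.60 (SE) for miR-221, with a 95% interval of −0.03 to 2.40, and 0.98 ± 0.48 for miR-222, with an interval of 0.01 to 1.95. The unadjusted p-values were 0.0547 and 0.0481, and edgeR's adjusted p-values were 0.364 and 0.349, in a comparison where 1.5% of the features passed. With the animal as a block the difference was 0.47 for miR-221 (unadjusted p = 0.379, edgeR's adjusted p = 0.753) and 0.88 for miR-222 (adjusted p = 0.428). Only 3 of 6 animals for miR-221 and 4 of 6 for miR-222 had omental fat above the mean of their own other depots. miR-221 stood at 68.8 CPM in OAT2 and 35.5 CPM in OAT6, against 0.603 to 8.77 CPM in the other 4 omental libraries. miR-222 stood at 14.0 and 11.0 CPM in the same libraries, against 1.16 to 5.22 CPM in the other 4. Without OAT2 alone the omental difference was 0.20 for miR-221 and 0.52 for miR-222. Without both libraries it was −1.28 for miR-221 and −0.19 for miR-222, and neither passed. For the remaining depots, each against the mean of the other 5, the differences ran from −0.37 to −0.03 for miR-221 and from −0.50 to 0.07 for miR-222. None passed, where 0.3% of features passed for inguinal fat, 2.25% for back, 3.15% for perirenal, 9.15% for pericardial and 9.3% for sternum fat.

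**Figure D2:**
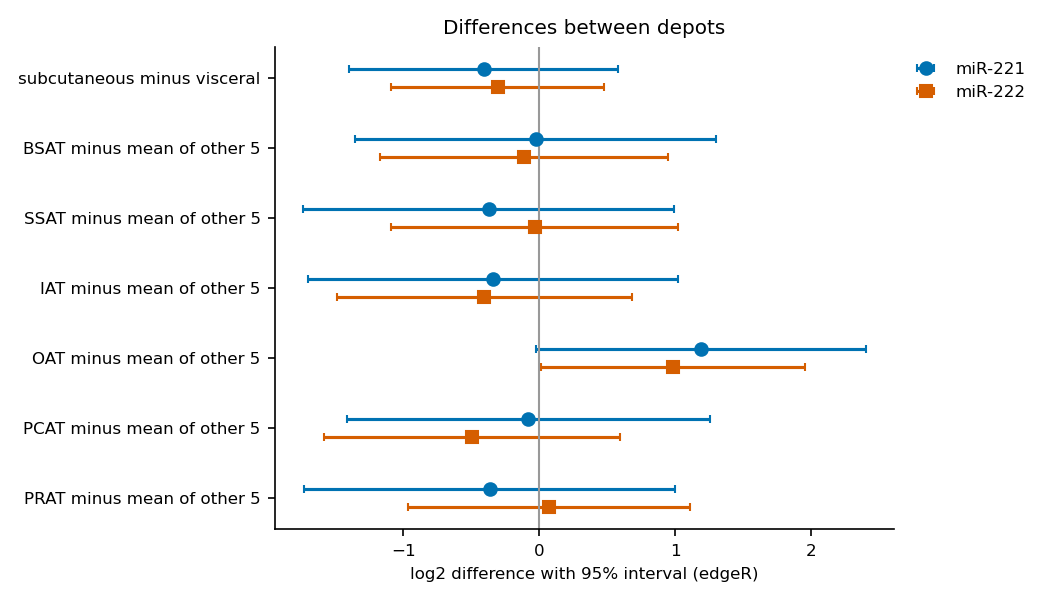
Fitted log2 differences with 95% intervals (edgeR) for subcutaneous minus visceral fat and for each depot minus the mean of the other 5, with miR-221 as circles and miR-222 as squares. All intervals for miR-221 include 0, and the one interval for miR-222 that does not is that of omental fat, which spans 0.01 to 1.95 and did not pass after adjustment.

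Markers of other cell types also differed between the omental libraries. The leukocyte list (miR-142, miR-150, miR-155, miR-223 and miR-146a; 6 of 6 rows tested, none at 0 in all libraries) summed to 46975 CPM in OAT6 and 19451 CPM in OAT2, against 3209 to 9834 CPM in the other 4 omental libraries. It ranged from 1559 to 25923 CPM in subcutaneous and from 3075 to 46975 CPM in visceral libraries. The epithelial and mesothelial list (miR-200a, miR-200b, miR-200c, miR-141 and miR-429; 5 of 5 rows tested, none at 0 in all libraries) summed to 539 CPM in OAT2, 327 CPM in OAT4 and 91.8 CPM in OAT6, against 7.72 to 9.13 CPM in the other 3. It ranged from 3.72 to 77.6 CPM in subcutaneous and from 5.17 to 2811 CPM in visceral libraries. OAT2 also had the lowest sum of all 36 libraries for the list abundant in fat, 8812 CPM against 20166 to 55166 CPM in the other omental libraries. Its sum for the smooth muscle list (miR-143 and miR-145), which shares miR-143 with that list, was also the lowest, 7710 CPM against 18629 to 46251 CPM in the other omental libraries. miR-143 averaged 28569 CPM over the 36 libraries and miR-145 averaged 390 CPM. Both sums are therefore largely that of the miR-143 row and are not separate observations. Outside omental fat, libraries with high miR-221 differed in these lists. PRAT6, with 27.3 CPM of miR-221, held 13981 CPM of the leukocyte and 165 CPM of the epithelial list. It held 89429 CPM of the smooth muscle list and 92076 CPM of the list abundant in fat, the highest of all 36 libraries for both. PCAT2, with 17.2 CPM of miR-221, held 5392 CPM of the leukocyte and 330 CPM of the epithelial list. IAT6, with 16.0 CPM, held 25923 CPM of the leukocyte list. BSAT3, with 26.8 CPM of miR-221, held 2597 CPM of the leukocyte and 5.93 CPM of the epithelial list, and SSAT2, with 22.2 CPM, held 1559 and 5.25 CPM. Over the 36 libraries the summed leukocyte list correlated on the log2 scale by r = 0.35 with miR-221 and by r = 0.56 with miR-222 (Spearman's rho 0.21 and 0.43). The epithelial and mesothelial list correlated by r = 0.32 and 0.22 (rho 0.24 and 0.25). These values describe libraries that share 6 animals. Within the leukocyte list, miR-155 averaged 1480 CPM, against 24.7 CPM for miR-146a and 18.4 CPM for miR-223. Both miR-142 rows averaged less than miR-223. The sum is therefore largely that of miR-150 and miR-155 and says little about the other members. miR-155 reached at most 7151 CPM in the omental libraries, so the sum of 46975 CPM in OAT6 is largely that of miR-150. miR-155 was itself among the 5 features likest to each of the pair (r = 0.75), so the correlations of the leukocyte list are not separate from that likeness. miR-126, the endothelial marker, ran from 15019 to 35343 CPM over its 2 rows and correlated by −0.37 with miR-221 and by −0.29 with miR-222. The part of these cell types in the levels of miR-221 and miR-222 was not tested.

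For both miRNAs, animal held a larger share of the variation than depot. Mean log2 CPM of miR-221 over an animal's 6 depots was 1.11, 3.90, 3.05, 2.50, 1.77 and 3.84 in animals 1 to 6. For miR-222 the means were 0.55, 1.71, 2.02, 1.35, 0.76 and 2.18. Animals 1 and 5 were lowest and animals 2, 3 and 6 highest for both miRNAs. miR-221 ran from 0.603 to 5.13 CPM in the 6 libraries of animal 1, against 2.92 to 68.8 CPM in animal 2 and 4.85 to 35.5 CPM in animal 6, so that the animals' ranges overlapped.

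A test of the difference among the 6 animals, in a model with depot and animal, was added after the values were seen. It gave miR-221 a range of 2.97 on the log2 scale between the highest and the lowest animal (edgeR's adjusted p = 0.0147), and miR-222 a range of 1.79 (adjusted p = 0.107, unadjusted p = 0.0269). By this test 11.7% of the 667 features passed, 78 in number, so that miR-221 was 1 of many. Without animal 1 the range of miR-221 was 2.13 and no longer passed (adjusted p = 0.107), and without OAT2 and OAT6 it was 2.38 (adjusted p = 0.0546). The libraries of 1 animal also share all that befell that animal and its samples, and nothing in the labels separates these. Of the sum of squares of log2 CPM, depot held 2.66% and animal 50.2% for miR-221, and depot held 8.85% and animal 31.1% for miR-222. The median over the tested features was 18.6% for depot and 20.0% for animal, where each takes 14.3% of the degrees of freedom.

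**Figure D3:**
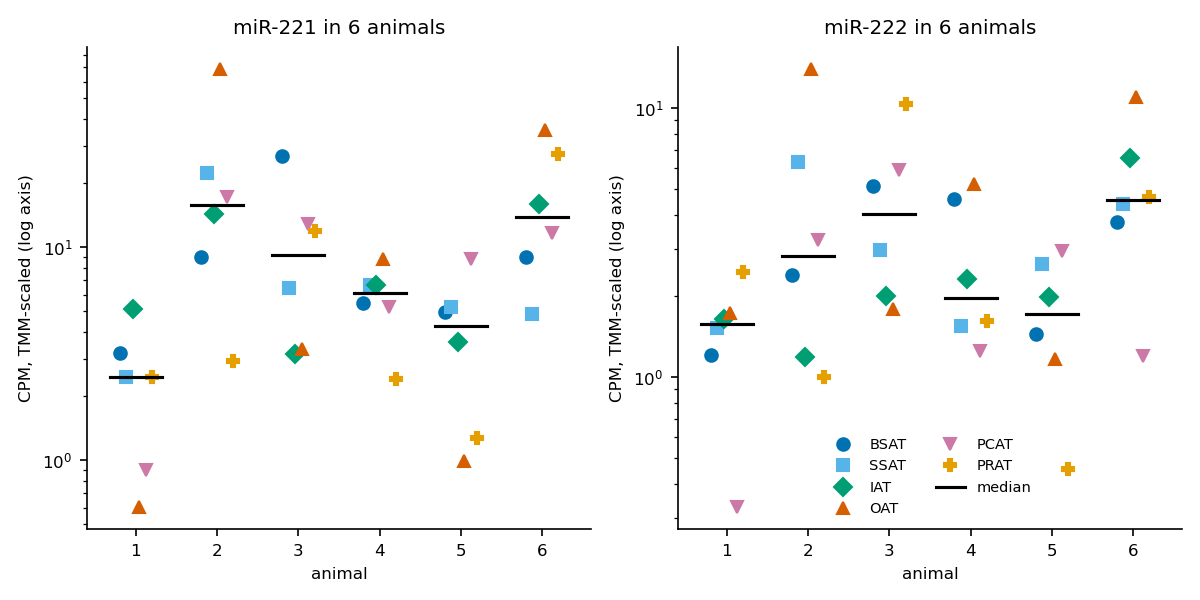
The same levels grouped by animal, in CPM on a log axis, 1 symbol per library and 1 shape and colour per depot, with the animal's median as a bar. Animal 1 lies low for both miRNAs, from 0.603 to 5.13 CPM of miR-221, and the omental libraries of animals 2 and 6 lie at the top.

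The pair varied together. miR-221 and miR-222 correlated by r = 0.77 (Spearman's rho = 0.71) over the 36 libraries in log2 CPM, by 0.81 after the depot means were removed and by 0.75 after depot and animal means were removed. Of the other 666 tested features, miR-221 was the likest to miR-222, and miR-222 was second likest to miR-221. These are descriptions, since libraries of 1 animal are not independent. Library totals correlated with miR-221 by −0.04 and with miR-222 by 0.06, and the TMM factor by 0.33 with each.

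By the named rows, miR-221 was the more abundant of the pair in 33 of 36 libraries. The exceptions were OAT1, with 7 reads of miR-221 and 20 of miR-222, OAT5, with 12 and 14 reads, and PRAT1, with 35 of each. miR-221 made up 25.9% of the pair's reads in OAT1, 73.0% in the median library and 92.3% in IAT2. Within a library this ratio needs no scaling between libraries, although reads of different miRNAs are captured with different efficiency, and it covers the named rows alone.

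The log2 ratio of miR-221 to miR-222 (1 read added to each) averaged 1.38 in subcutaneous and 1.20 in visceral fat. The difference of 0.18 ± 0.95 (SD over 6 animals), higher in 5 of 6 animals, was smaller than its spread (exact two-sided sign-flip permutation test, p = 0.625). In pericardial fat the log2 ratio ran from 1.12 through a median of 1.78 to 3.21, and in all libraries of the other depots from −1.39 to 3.51, so they overlapped. Its mean was 1.92 in pericardial fat, against 1.17 over the other 5 depots, a difference of 0.76 ± 0.63 (SD, n = 6) that was positive in 6 of 6 animals. The exact sign-flip permutation test gave p = 0.0312, the smallest that 6 animals allow, and 0.188 after adjustment over the 6 depots. With no other depot at that smallest p, the adjusted p could not fall under 0.05. It therefore cannot decide whether the ratio differs in pericardial fat. Omental fat had the lowest mean ratio, 0.67 against 1.42 over the other 5, a difference of −0.75 ± 0.98 (exact permutation p = 0.125, adjusted p = 0.375).

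**Figure D4:**
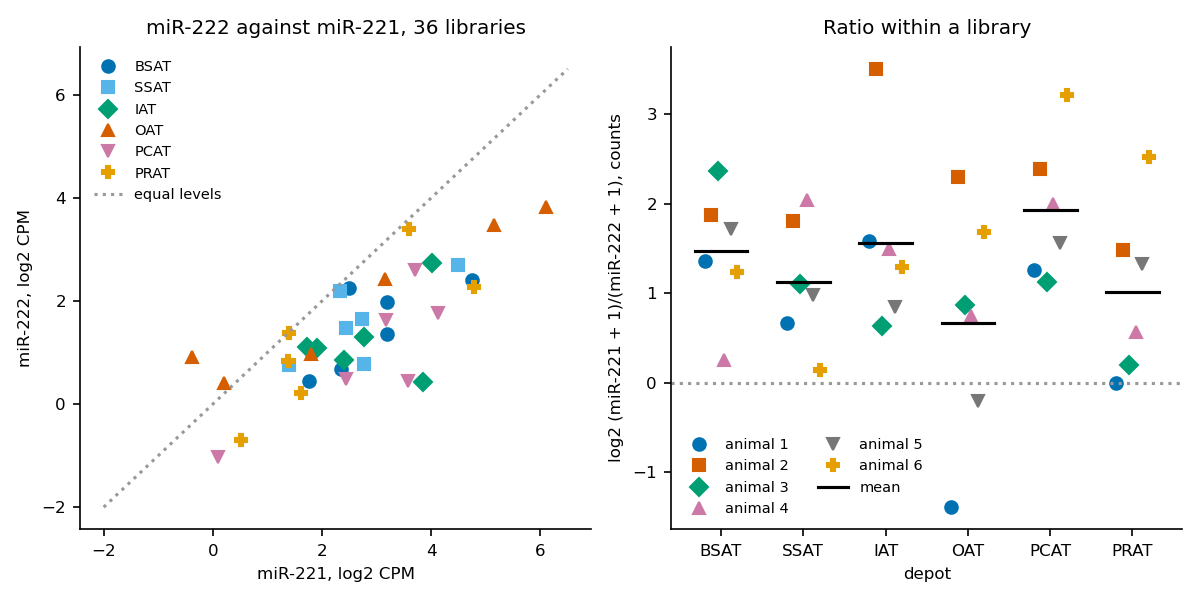
Left, log2 CPM of miR-222 against miR-221 in the 36 libraries, with a dotted line of equal levels. Right, the log2 ratio of the pair within each library by depot, 1 symbol per animal, with the depot mean as a bar: pericardial fat has the highest mean (1.92) and omental fat the lowest (0.67).

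The features whose pattern was most like the pair's were named by Pearson's r of log2 CPM over the 36 libraries, among features with a mean of at least 10 CPM. For miR-221 they were the candidate locus NC_059181.1_46472 (r = 0.95), miR-15a (0.76), miR-155 (0.75), miR-146a (0.73) and the candidate locus NC_059159.1_11227 (0.73). For miR-222 they were miR-221 (0.77), miR-146b (0.76), miR-155 (0.75), the candidate locus NC_059165.1_23375 (0.70) and miR-146a (0.70). miR-155 and miR-146a, both best known from immune cells, are also members of the leukocyte list. The candidate loci have only an identifier in the count table, and they are left unnamed here.

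NC_059181.1_46472 followed miR-221 far more closely than the next feature did. It averaged 1108 CPM, was 59.8 to 235 times as abundant as miR-221 in each library (median 107), and correlated with it by 0.95 also within depots. Its highest library was OAT2 with 7678 CPM and its lowest OAT5 with 59.6 CPM. This locus did not pass between the classes (subcutaneous minus visceral −0.31 ± 0.48, edgeR's adjusted p = 0.700) and passed among animals (adjusted p = 0.0251), as miR-221 did. Whether reads of 1 molecule were divided between these 2 rows by the counting was not tested.

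Of the named miRNAs with a like pattern, the difference between the classes passed for miR-146a alone. miR-146a, a brake on inflammatory signalling, had a range of 5.13 to 41.7 CPM with a median of 14.9 CPM in subcutaneous fat, against 4.15 to 133 CPM with a median of 24.0 CPM in visceral fat. It fell by 0.96 on the log2 scale in subcutaneous fat (SE 0.33, edgeR's adjusted p = 0.0436), with ranges that overlapped. miR-155 was at −0.92 ± 0.37 (adjusted p = 0.0847), miR-146b at −1.05 ± 0.48 (0.126) and miR-15a at −0.77 ± 0.34 (0.115). The candidate loci NC_059159.1_11227 (−0.91 ± 0.28, adjusted p = 0.0218) and NC_059165.1_23375 (−1.13 ± 0.35, adjusted p = 0.0230) were lower in subcutaneous fat. The first ran from 10.7 to 43.5 CPM in subcutaneous and from 7.75 to 139 CPM in visceral fat. The second ran from 43.4 to 299 and from 24.4 to 831 CPM. Both were highest in OAT2, and miR-146a was highest in OAT6. All these calls are by the fit with no animal term. For these rows, values with the animal block or without OAT2 and OAT6 are not given here. That miR-221 and miR-222 did not pass and miR-146a and the 2 loci did is not a test of the difference between them.

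**Figure D5:**
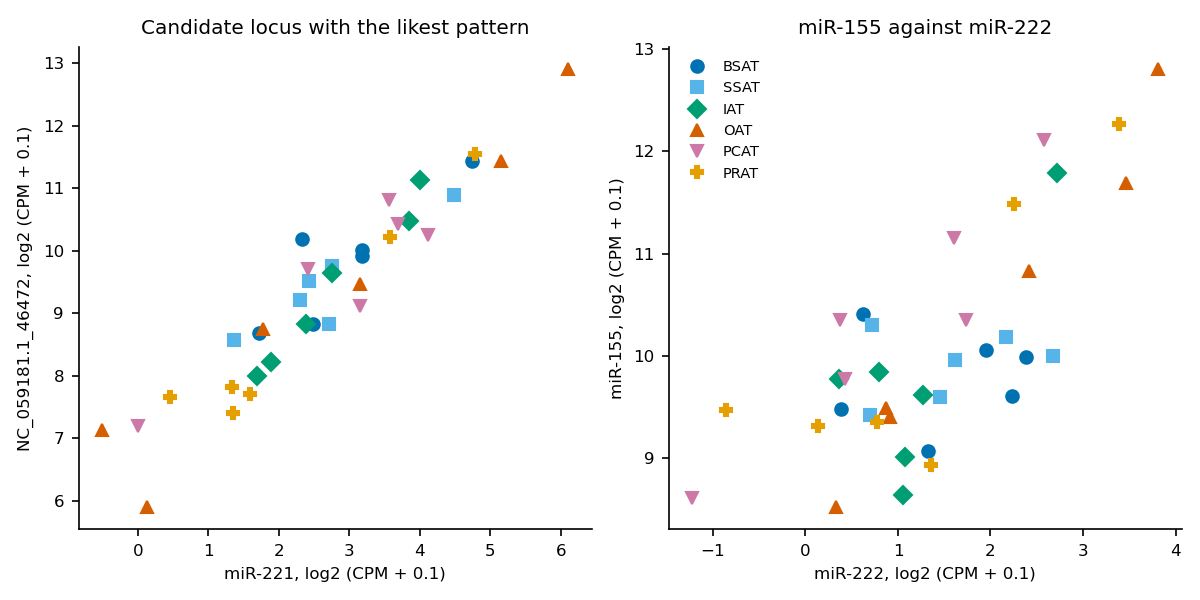
Left, the candidate locus with the likest pattern against miR-221, in log2 (CPM + 0.1), and right, miR-155 against miR-222 on the same scale, 1 symbol per library and 1 shape and colour per depot. The correlations of log2 CPM given in the text are 0.95 on the left and 0.75 on the right.

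Lists of miRNAs known from other work for a role in fat give the setting of the pair. Of the anti-adipogenic list, which holds miR-221 and miR-222, 18 rows were tested: 5 were higher and 1 lower in subcutaneous fat, with a median log2 difference of −0.14, against −0.09 over all tested features, of which 7.2% were higher and 9.3% lower. Among the higher rows, miR-27a-3p (0.81 ± 0.15) and miR-27b (0.51 ± 0.15) are known to repress PPARG, the master factor of fat cell differentiation. The others were miR-27a-5p (1.76 ± 0.33), miR-224 (1.01 ± 0.17) and miR-22-5p (0.72 ± 0.11). miR-27a-5p and miR-27a-3p are arms of the same precursor and averaged 52.9 and 12605 CPM. miR-22-5p averaged 233 CPM, whereas the other arm, miR-22-3p, averaged 4315 CPM and was not called (−0.006 ± 0.12). The called rows are thus not as many separate miRNAs. miR-138 was lower (−1.60 ± 0.48). Reads of miR-27a and miR-27b can be divided between their rows by counting.

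Of 24 tested rows of the pro-adipogenic list, 1 was higher (miR-103, 0.52 ± 0.14) and 2 were lower in subcutaneous fat (miR-17-5p, −1.36 ± 0.43, and miR-335, −1.15 ± 0.41), with a median of 0.04, where 7.2% of all tested features were higher and 9.3% lower. Of 22 tested rows of the obesity-linked list, which also holds the pair, 2 were higher (miR-193a-5p, 0.72 ± 0.24, and miR-132, 0.58 ± 0.20) and 2 were lower (miR-142-3p, −2.51 ± 0.65, and miR-142-5p, −1.93 ± 0.55), with a median of 0.15. These counts are near the shares over all features. miR-17-5p and miR-335 averaged only 4.64 and 3.39 CPM, and the other arm, miR-17-3p, was not called (−0.18 ± 0.33). The further rows miR-193a-3p (0.26 ± 0.18) and miR-193a (0.006 ± 0.29) were not called either. miR-142-3p and miR-142-5p are arms of the same precursor and thus not 2 separate miRNAs. miR-142 is a miRNA of blood-forming cells and is also in the leukocyte list. miR-223, a member of both lists too, had the other sign (0.45 ± 0.29) and was not called. Of 17 tested rows of the angiogenesis-linked list, 2 were higher and 1 lower, with a median of 0.10, and these were miR-27b, miR-132 and miR-17-5p, counted above. The lists overlap, and every call is by edgeR's quasi-likelihood test with adjustment over the 667 features.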

How the data were processed

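The labels' protocols name the RNeasy Lipid Tissue Mini Kit for RNA and the TruSeq RNA LT kit v2 for libraries. The authors deposited raw whole-number read counts for each feature and library, and RPM values that differed from counts over library totals by at most 4.79e-06. No aligner, miRNA caller or genome build is named in the sources used here. The submitters' processing notes list DESeq2 1.24.0 with no role. A blank row with 0 counts was dropped.

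Depot and animal came from the labels. The members and lists were chosen with earlier results of these data known. Counts were tested in R 4.3.3 with edgeR 4.0.16 (quasi-likelihood, robust, 30 residual degrees of freedom), with TMM factors of 0.745 to 1.26, filterByExpr (minimum count 10) and 1 coefficient per depot. All tests were two-sided, with p-values adjusted by Benjamini-Hochberg over 667 features and a threshold of 0.05. Libraries of 1 animal were treated as independent. SE is the size of a log2 difference over the root of its F statistic. log2 CPM used a prior count of 2. Named features were the members, the 5 likest to each and up to 4 called rows of each list with the smallest p. miR-27b, miR-138, miR-223 and the further rows of miR-17 and miR-193a were named after their values were seen. Fits were checked on simulated counts, drawn independently for each library without an animal effect, so the check does not cover the pairing by animal.

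The animal pairs the libraries, because every depot came from the same 6 animals. Deviations from depot means had a mean correlation of 0.198 for libraries of 1 animal, where 64 of 90 such pairs were over 0.1, and of −0.0653 for libraries of different animals. No 2 libraries agreed within sampling noise (smallest chi-square per degree of freedom 826). The alternatives changed the scaling (RLE, library totals), the filter (none, or a mean CPM of 10 or more), the tool (DESeq2 1.42.0, or limma 3.58.1 on log2(RPM + 1) and log2(RPM + 10)), the model (animal as a replicate block, library letter as covariate, 2 groups of 18, sums per animal and class) and the libraries (letter B alone, each animal or library left out). The omission of OAT2 and OAT6 and the test among animals were added after the values were seen. No sequence or position of the miRNAs is given.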

Additional observations from a re-analysis of the deposited data

Results flagged for a closer look

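Among 18 sets of 6 libraries (2 levels and 1 log2 ratio in each depot), 4 held a library far from the others by the gap between it and its neighbour, relative to the whole range. Chance marks about 1 in 20 such sets when values are normally distributed, which skewed CPM levels are not. miR-221 stood at 26.8 CPM in BSAT3, where the next back library had 9.004 CPM. It stood at 22.2 CPM in SSAT2, where the next sternum library had 6.66 CPM. miR-222 stood at 6.50 CPM in IAT6, where the next inguinal library had 2.31 CPM. The log2 ratio of miR-221 to miR-222 stood at 3.51 in IAT2, where the next was 1.58, from 181 reads of miR-221 and 15 of miR-222. This last one stood apart on the log2 scale, whereas the 3 levels did so only in CPM. Levels that did not stand apart in CPM were not judged on the log2 scale. The number of the 18 sets that would stand apart on it is therefore not known.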

How the results depend on the processing

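No difference of either miRNA between classes or depots passed under any alternative run. With the animal as a replicate block no call changed: the class difference was −0.0076 for miR-221 and −0.19 for miR-222, and the omental difference of miR-221 was 0.47. The sign turned in these cases, whose cause was not tested. With the block, miR-222 was 0.024 in SSAT and −0.041 in PRAT, miR-221 0.22 in BSAT and 0.032 in PCAT, and sums per animal and class gave miR-221 0.036 between classes. Without OAT2 and OAT6, miR-222 gave 0.075 between classes, 0.047 in BSAT, 0.26 in SSAT and −0.19 in OAT, and miR-221 gave 0.45 between classes, 0.43, 0.25, 0.13, −1.28, 0.32 and 0.15 in BSAT, SSAT, IAT, OAT, PCAT and PRAT. miR-222 in SSAT was 0.056 with RLE factors, 0.057 with DESeq2, 0.036 with no filter and 0.044 in letter B libraries. With limma on log2(RPM + 1), miR-222 was −0.065 in PRAT and miR-221 0.13 in BSAT and 0.30 in PCAT. miR-221 in PCAT was 0.11 with log2(RPM + 10), 0.041 with library totals and 0.084 with the letter as covariate. In letter B libraries it was 0.014 in BSAT and 0.47 in PRAT.

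With 1 animal or library left out, miR-222 ran from −0.46 to 0.0054 between classes, from −0.42 to 0.0040 in BSAT, from −0.28 to 0.22 in SSAT and from −0.63 to 0.50 in PRAT. miR-221 ran from −0.60 to −0.04 between classes, from −0.67 to 0.37 in BSAT, from −0.89 to 0.044 in SSAT, from −0.43 to 0.12 in PCAT, from −1.20 to 0.20 in PRAT and from 0.20 to 1.53 in OAT. The range among animals of miR-221 ran from 2.13 to 3.21. It was 2.38 without OAT2 and OAT6, and passed in all other alternatives but the omission of animal 1. The log2 ratio ran from −0.032 to 0.53 between classes, from −0.064 to 0.48 in BSAT and from −0.45 to 0.12 in SSAT.

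The 110 features called between classes became 22 in sums per animal and class, 44 in those sums with the block, 39 in letter B libraries, 71 with the letter as covariate, and 71 and 56 without animals 1 and 4. The 93 called among depots became 172 with DESeq2, 43 in letter B libraries, and 59, 40 and 52 without animals 1, 4 and 5. The 78 called among animals became 176 with DESeq2, 40 of 288 at a mean CPM of 10 or more, and 39 and 49 without animals 1 and 6. With that minimum miR-222 has no value. Counts as low as 4 reads limit what could be seen for miR-222.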

Other observations

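The candidate locus NC_059181.1_46474, looked at after its values were seen because its identifier carries a number near that of the locus most like miR-221, averaged 3367 CPM and correlated by 0.24 with miR-221 and by 0.44 with miR-222 over the 36 libraries. It ran from 1827 through a median of 3983 to 8485 CPM in subcutaneous fat, against 636 through 1902 to 5383 CPM in visceral fat. It was higher in subcutaneous fat by 1.09 ± 0.23 on the log2 scale (edgeR's adjusted p = 0.00143). Against the mean of the other 5 depots it was lower in pericardial fat (−1.48, edgeR's adjusted p = 0.00393), where 9.15% of features passed. It was higher in sternum fat (0.93, edgeR's adjusted p = 0.0369), where 9.3% passed. Back fat had a like difference (0.95, edgeR's unadjusted p = 0.00216) but did not pass (adjusted p = 0.0723), where 2.25% passed. The higher level was thus not particular to sternum fat. Reads of this locus outnumbered those of the miR-222 row, which held 0.109% of the reads of both rows. The table does not pair this identifier with a miRNA name, and whether it holds reads of miR-222 or of any other named miRNA was not tested. The values of miR-222 given here are of its named row alone.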
